A study of Mus musculus with 7 samples.

Results

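The activator protein 1 (AP-1) and immediate early genes examined here were Fos, Fosb, Jun, Junb, Jund, Atf3, Egr1, Ier2, Zfp36 and Dusp1, chosen by symbol. All 10 were among the 11753 named genes of experiment ii, while 9 of 12145 genes listed in library 1 of experiment i and 8 of 8868 listed in library 2 were members. The study profiled single cells of mammary tumours and blood of mice carrying the polyoma middle T (PyMT) transgene, a model of breast cancer, by CEL-seq, which tags each molecule and reads the 3′ end of transcripts. In experiment ii, cells were sorted by surface E-cadherin (Ecad), the epithelial adhesion molecule and product of Cdh1, into 4 populations whose wells the labels name by a code. These are Ecad-negative circulating cells (circulating tumour cells by label, BEn, 60 wells used), Ecad-positive circulating cells (BEp, 20 wells, library 1 only), Ecad-negative tumour cells (TEn-labelled wells of solid tumour, 69 used) and Ecad-positive tumour cells (TEp, 71 wells). Apart from the Ecad-positive circulating cells, each population was present in each of 4 libraries. In experiment i, E-cadherin-positive bulk tumour cells filled 3 libraries of 96 wells. Every group came from PyMT tumours or their blood, so no group is free of the transgene. The promoter of the transgene, the strain, the age and the number of mice are not given in the sources used here. The 4 libraries of experiment ii used the same 72 well barcodes.

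AP-1 is a dimer of a Fos protein with a Jun protein, or of Jun proteins with each other, that binds DNA through a leucine zipper. Immediate early genes are transcribed within minutes of a growth factor or stress signal, without new protein synthesis, and their transcripts decay fast, in part through AU-rich elements near the 3′ end. Growth factor signalling of mammary epithelium runs through this group, and the same genes are known to be induced while a solid tissue is taken apart into single cells.

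Wells held a median of 819 transcripts in Ecad-negative circulating cells, 3803 in Ecad-positive circulating cells, 1603 in Ecad-negative tumour cells and 2064 in Ecad-positive tumour cells, and 3083 and 883 in libraries 1 and 2 of experiment i. Wells with at least 500 transcripts of mouse genes were used, and library 3 of experiment i, with 1 such well, was left out. A single Ecad-negative tumour well of library 2 held 61227 transcripts. Epithelial markers (8 genes) took 0.0571 to 0.135% of Ecad-negative circulating transcripts, 0.00934% of Ecad-positive circulating cells, 0.181 to 0.392% of Ecad-negative tumour cells and 0.413 to 0.679% of Ecad-positive tumour cells. The wells sorted as Ecad-positive circulating cells thus had the smallest epithelial share, with Krt19, Cldn3 and Cldn7 at 0. Neutrophil markers (8 genes) took 4.56 to 10.3% of Ecad-negative circulating cells and 2.05% of Ecad-positive circulating cells, against 0.0964 to 0.410% of Ecad-negative tumour cells and 0.177 to 0.379% of Ecad-positive tumour cells, and leukocyte markers 1.21 to 2.19% of Ecad-negative circulating cells and 1.28% of Ecad-positive circulating cells, against 0.0283 to 0.127% of Ecad-negative tumour cells and 0.0349 to 0.121% of Ecad-positive tumour cells. Of the defining markers, Ly6g was at 0 in all 4 populations and Ptprc in all but the Ecad-negative circulating cells. The blood populations are therefore called by their sort labels, and how far leukocyte and neutrophil transcripts set their values was not tested.

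The 4 promoters shown are those of members in which a searched control element was found, while the 4 others in the table (Jun, Fosb, Jund and Atf3) held none. The Jund window, which ends at chr8:70697788, lies wholly before the GENCODE start of that gene at 70698949, where no search was made. They run from 250 bases before to 50 after the RefSeq start of the gene (GRCm38.p6), 8 of the 10 members matched the table, and capitals mark the searched motifs.
Fos promoter, chr12:85473640-85473939, plus strand: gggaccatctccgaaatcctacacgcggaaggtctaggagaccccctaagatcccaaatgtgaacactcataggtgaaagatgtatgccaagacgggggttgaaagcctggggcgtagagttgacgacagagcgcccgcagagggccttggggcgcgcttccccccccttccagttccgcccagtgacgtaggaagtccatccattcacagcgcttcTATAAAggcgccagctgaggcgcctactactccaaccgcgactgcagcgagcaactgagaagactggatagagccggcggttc
Zfp36 promoter, chr7:28379179-28379478, minus strand: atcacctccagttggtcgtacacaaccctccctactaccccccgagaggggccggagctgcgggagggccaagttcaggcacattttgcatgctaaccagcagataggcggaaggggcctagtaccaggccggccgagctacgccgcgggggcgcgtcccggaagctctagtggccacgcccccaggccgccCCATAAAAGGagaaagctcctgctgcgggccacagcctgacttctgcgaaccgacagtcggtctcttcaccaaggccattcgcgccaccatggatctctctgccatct
Dusp1 promoter, chr17:26508423-26508722, minus strand: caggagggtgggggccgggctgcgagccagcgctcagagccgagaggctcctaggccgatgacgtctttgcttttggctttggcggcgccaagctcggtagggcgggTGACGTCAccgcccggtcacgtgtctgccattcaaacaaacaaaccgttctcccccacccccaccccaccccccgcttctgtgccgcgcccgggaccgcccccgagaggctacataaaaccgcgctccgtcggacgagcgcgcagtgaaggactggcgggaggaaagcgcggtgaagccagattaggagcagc
Junb promoter, chr8:84978699-84978998, minus strand: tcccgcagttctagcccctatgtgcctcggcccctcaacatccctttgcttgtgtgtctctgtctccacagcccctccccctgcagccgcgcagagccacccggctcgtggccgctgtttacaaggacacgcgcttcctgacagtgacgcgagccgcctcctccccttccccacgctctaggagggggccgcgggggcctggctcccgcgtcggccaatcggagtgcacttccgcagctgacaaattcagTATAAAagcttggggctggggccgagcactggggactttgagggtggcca

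The capitals in Fos and Junb match the TATA box (TATAAA), at −33 to −28 and +1 to +6 from the RefSeq start. The GENCODE start of Junb, chr8:84978718 on the minus strand, lies after its motif, so the position depends on the annotation. The capitals in Zfp36 match the CArG box, the element bound by serum response factor, at −58 to −49, and those in Dusp1 the cyclic AMP response element (TGACGTCA) at −143 to −136. On both strands of 32851 promoters of the same length, TATAAA was found in 13.6%, the CArG box in 1.63%, TGACGTCA in 1.79% and the AP-1 site TGANTCA in 7.81%. The last was in 0 of the 8 member promoters and each other motif in no more than 2, with no overlap between the marked motifs. Only full matches within these windows were searched, so near matches and elements further from the start were not looked for.

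The core of the AU-rich element, TATTTAT in DNA letters, is the sequence that the Zfp36 protein binds. Searched on the sense strand, it was in the last 500 bases of the longest 3′ untranslated region in 6 of the 9 members with such a region of that length, against 15.2% of 14219 genes. Fos held 2 copies, Zfp36 3, Dusp1 2, and Jun, Jund and Atf3 1 each, while the letters were absent from this window of Fosb, Egr1 and Ier2. Below, 1 copy per gene stands in capitals within 29 bases read from the GRCm38 transcripts (GENCODE M21).
Fos 3′ site, chromosome 12: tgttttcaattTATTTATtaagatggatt
Zfp36 3′ site, chromosome 7: agtgggcccttTATTTATgacgactttat
Dusp1 3′ site, chromosome 17: gtttttaccttTATTTATttttgtgtagg
Jun 3′ site, chromosome 4: ttgcttgtgcaTATTTATaatagcgttcg

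The members together were most abundant in Ecad-positive tumour cells. Summed over the 10 genes, libraries 1 to 4 held 41.8, 53.995, 50.7 and 48.5 transcripts per 10000 in Ecad-negative circulating cells, 87.3, 26.5, 73.7 and 43.96 in Ecad-negative tumour cells, and 138, 90.1, 90.1 and 102 in Ecad-positive tumour cells. The Ecad-positive circulating sum of library 1 was 18.2 per 10000 (95% Poisson interval 15.3 to 21.5). Every Ecad-positive tumour library lay above every library of the Ecad-negative tumour and circulating cells, whereas Ecad-negative tumour libraries lay on either side of the circulating ones. The means were 48.8 ± 5.17 in Ecad-negative circulating cells, 57.9 ± 27.6 in Ecad-negative tumour cells and 105.1 ± 22.5 in Ecad-positive tumour cells (SD, n = 4 libraries). The mean difference of Ecad-negative tumour cells from Ecad-positive tumour cells was −47.2, lower in 4 of 4 libraries, and that of Ecad-negative circulating cells from Ecad-positive tumour cells −56.3, again in 4 of 4 (two-sided exact permutation test over libraries, p = 0.13 each, the smallest that 4 libraries allow). Ecad-negative circulating cells and Ecad-negative tumour cells differed by −9.10 with Ecad-negative circulating cells lower in 2 of 4 (exact permutation p = 0.75). Fewer cells with a transcript and fewer transcripts per cell cannot be told apart in these sums.

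**Figure D1:**
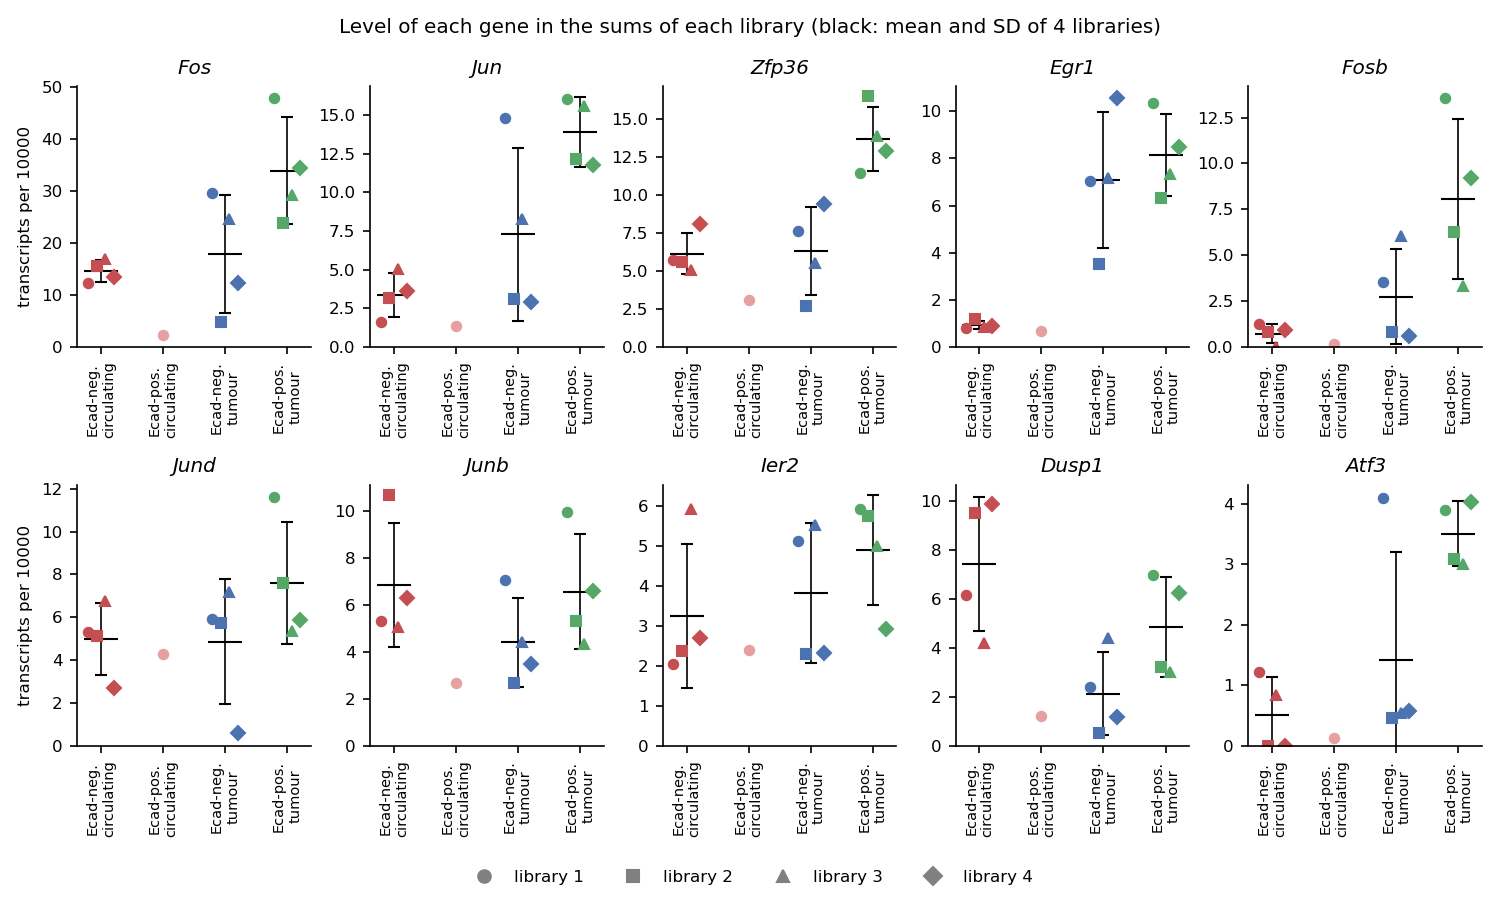
Level of each of the 10 genes (transcripts per 10000, vertical axis, own scale in each panel) in the sum of each library for Ecad-negative circulating cells, Ecad-positive circulating cells, Ecad-negative and Ecad-positive tumour cells. Points are libraries 1 to 4 (Ecad-positive circulating cells 1 library) and black lines the mean and SD of 4 libraries. Zfp36 of Ecad-negative tumour cells lies below all Ecad-positive tumour libraries, Egr1 of Ecad-negative circulating cells below all Ecad-negative tumour libraries and Ecad-positive tumour libraries, and Dusp1 is higher in Ecad-negative circulating cells than in Ecad-negative tumour cells in 3 of 4 libraries.

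Fos led in the mean of all 3 replicated populations. In Ecad-negative circulating cells it averaged 14.6 ± 2.06 per 10000, ahead of Dusp1 at 7.45 ± 2.73. In Ecad-negative tumour cells it averaged 17.8 ± 11.4, ahead of Jun at 7.28 ± 5.59, and in Ecad-positive tumour cells 33.9 ± 10.3, ahead of Jun at 13.9 ± 2.24 (SD, n = 4 libraries). The difference from that next gene exceeded its own SD between libraries and was above 0 in 4 of 4 libraries in each population (exact permutation p = 0.13 each). The order was taken from the means of these same libraries, so the steps in it are descriptions and this p does not test the lead. Against all members Fos did not lead in every library, since Jund exceeded it in Ecad-negative tumour library 2. Further down the order in Ecad-positive tumour cells came Zfp36 (13.6), Egr1 (8.14), Fosb (8.08), Jund (7.60), Junb (6.55), Ier2 (4.90), Dusp1 (4.86) and Atf3 (3.50). Only the step from Zfp36 to Egr1 exceeded its SD there. In Ecad-negative tumour cells the order after Jun was Egr1 (7.08), Zfp36 (6.29), Jund (4.86), Junb (4.40), Ier2 (3.82), Fosb (2.75), Dusp1 (2.14) and Atf3 (1.42), and no step exceeded its SD. In Ecad-negative circulating cells the order after Dusp1 was Junb (6.84), Zfp36 (6.11), Jund (4.98), Jun (3.36), Ier2 (3.255), Egr1 (0.935), Fosb (0.728) and Atf3 (0.517), with the step from Ier2 to Egr1 beyond its SD. CEL-seq counts 1 tag per transcript, so these levels can be set beside each other without a correction for length.

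The composition differed more than the leader. Dusp1 was 15.3 ± 5.17% of the summed members in Ecad-negative circulating cells, 3.37 ± 1.78% in Ecad-negative tumour cells and 4.52 ± 1.30% in Ecad-positive tumour cells. Egr1 was 1.91 ± 0.221% in Ecad-negative circulating cells, against 13.8 ± 7.19% in Ecad-negative tumour cells and 7.75 ± 0.590% in Ecad-positive tumour cells, while Fos was 29.9 ± 2.45%, 28.3 ± 7.49% and 31.9 ± 3.67% of the 3 sums. In Ecad-negative tumour library 2 Jund led with 5.72 per 10000 and Fos followed with 4.73. The large well held 39 of the 63 Jund transcripts there. In Ecad-positive tumour library 1 a single well held 39.7% of the summed transcripts. In Ecad-negative tumour library 2 without its large well, Fos led with 6.62 per 10000, and the summed level of the library was 36.7 in place of 26.5.

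**Figure D2:**
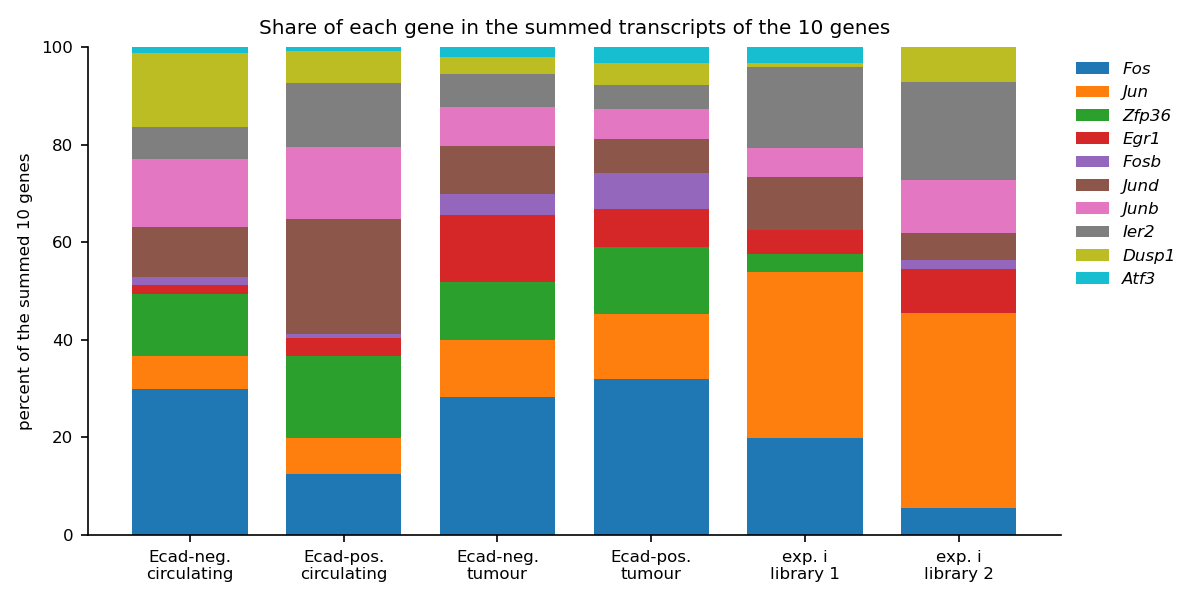
Percent of the summed transcripts of the 10 genes taken by each gene (stacked bars, vertical axis in percent; mean of 4 libraries in Ecad-negative circulating cells, Ecad-negative and Ecad-positive tumour cells, 1 library in the other bars). Fos takes 28.3 to 31.9% in Ecad-negative circulating cells, Ecad-negative and Ecad-positive tumour cells, 12.5% in Ecad-positive circulating cells, and 19.8% and 5.45% in libraries 1 and 2 of experiment i, where Jun takes 34.01% and 40.04%.

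The first comparison asked how E-cadherin-negative tumour cells differ from E-cadherin-positive ones. Of 9 members tested, Fos, Fosb and Zfp36 fell in Ecad-negative tumour cells and 0 rose, beside 1.63% of all 490 tested genes that fell and 4.69% that rose (6.33% in either direction). The median log2 fold change of the 9 was −0.95, against −0.01 over all genes tested. All 9 had a fold change below 0, as did 51.02% of all genes. Atf3 did not pass the filter on low counts.

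Among the Fos genes, Fos had 29.7, 4.73, 24.6 and 12.3 transcripts per 10000 in Ecad-negative tumour libraries 1 to 4 and 47.96, 23.9, 29.3 and 34.4 in Ecad-positive tumour cells. Fos was lower in Ecad-negative tumour cells in each library, but libraries 1 and 3 lay among those of Ecad-positive tumour cells. The fitted log2 fold change was −1.01 (SE 0.26, edgeR adjusted p = 0.0119). Fosb, a close relative of Fos that also pairs with Jun proteins, had 3.51, 0.821, 6.07 and 0.583 per 10000 in Ecad-negative tumour cells and 13.5, 6.24, 3.33 and 9.20 in Ecad-positive tumour cells. Library 3 was the exception, with Ecad-negative tumour cells above Ecad-positive tumour cells. The log2 fold change was −1.70 (SE 0.43, edgeR adjusted p = 0.0119). Single wells held 41.5% of Fos and 52.4% of Fosb transcripts in Ecad-positive tumour library 1, against 25.8% and 46.4% in Ecad-negative tumour library 1.

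The Jun genes did not pass. Jun had 14.8, 3.12, 8.28 and 2.92 per 10000 in Ecad-negative tumour cells and 16.1, 12.2, 15.6 and 11.7 in Ecad-positive tumour cells. It was lower in Ecad-negative tumour cells in 4 of 4 libraries, by little in library 1 and by most in library 2, and the log2 fold change was −0.95 (SE 0.31, edgeR adjusted p = 0.0596). Junb ranged from 2.66 to 7.04 per 10000 in Ecad-negative and from 4.35 to 9.94 in Ecad-positive tumour cells, and Jund from 0.583 to 7.18 and from 5.34 to 11.6. Junb stood at −0.53 (edgeR adjusted p = 0.402) and Jund, the Jun protein that many cells express without stimulation, at −0.52 (0.366), each lower in Ecad-negative tumour cells in 3 of 4 libraries. Atf3, a stress-induced relative that can pair with Jun, averaged 1.42 ± 1.78 per 10000 in Ecad-negative tumour cells and 3.50 ± 0.538 in Ecad-positive tumour cells, lower in 3 of 4 libraries (exact permutation p = 0.25, untested by edgeR).

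Zfp36 encodes tristetraprolin, which binds AU-rich elements and speeds decay of the transcripts that hold them. It had 7.59, 2.66, 5.51 and 9.39 per 10000 in Ecad-negative tumour cells and 11.4, 16.4, 13.8 and 12.9 in Ecad-positive tumour cells. The groups did not overlap, and the log2 fold change was −1.20 (SE 0.30, edgeR adjusted p = 0.0106). A single well held 38 of the 68 Zfp36 transcripts of Ecad-positive tumour library 1 (55.4%), against 32.4% in Ecad-negative tumour library 1. The separation of the groups without that well was not tested. Dusp1, a phosphatase that inactivates MAP kinases, had 2.43, 0.547, 4.42 and 1.17 per 10000 in Ecad-negative tumour cells and 6.98, 3.22, 3.004 and 6.24 in Ecad-positive tumour cells. Library 3 ran against the others, and the log2 fold change of −1.37 (SE 0.48) did not pass (edgeR adjusted p = 0.0761). It passed in 3 of 13 alternatives: without library 3 (−1.95, edgeR adjusted p = 0.0253), with means over cells (limma, 0.0304) and with no filter on low counts (0.00662). Over the 13 the fold change ran from −1.95 to −0.95. The zinc finger factor Egr1 averaged 7.08 ± 2.88 in Ecad-negative and 8.14 ± 1.73 in Ecad-positive tumour cells, and the nuclear protein gene Ier2 3.82 ± 1.74 and 4.90 ± 1.38 per 10000 (SD, n = 4 libraries). Their log2 fold changes of −0.22 and −0.40 did not pass (edgeR adjusted p = 0.699 and 0.540).

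Without the replicate block Fos stood at −0.87 (edgeR adjusted p = 0.222), Fosb at −1.71 (0.0570) and Zfp36 at −1.12 (0.0570), so no call was left. With DESeq2 the 3 calls were lost at −0.94, −1.63 and −1.14 (adjusted p = 0.240, 0.158 and 0.0994). With at least 1500 transcripts per well they were lost at −0.91, −1.78 and −0.9965 (0.261, 0.181 and 0.258). Without library 2 they were lost at smaller fold changes of −0.62, −1.28 and −0.64 (edgeR adjusted p = 0.0530, 0.0898 and 0.26). Fos and Fosb lost their calls without library 4 (edgeR adjusted p = 0.15 and 0.156), Fosb without library 1 (0.222) and Zfp36 without library 3 (0.0780). Without the 30 Ecad-negative tumour wells that lay above every Ecad-positive tumour well in endothelial, basal or leukocyte markers, the same 3 fell and so did Jun (−1.31, edgeR adjusted p = 0.0111). Jun also passed without library 1 (−1.49, 0.00542) and with no filter on low counts (−1.27, 0.000765). It did not pass in the other 10 of 13 alternatives, and its fold change ran from −1.49 to −0.60 over the 13. Heat shock genes took 0.675 to 0.825% of Ecad-negative tumour cells and 0.654 to 0.843% of Ecad-positive tumour transcripts, ranges that overlap, while basal markers took 0.114 to 1.001% of Ecad-negative tumour cells against 0.0219 to 0.04997% of Ecad-positive tumour cells, and the part of these markers in the members' values was not tested beyond leaving out those wells.

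**Figure D3:**
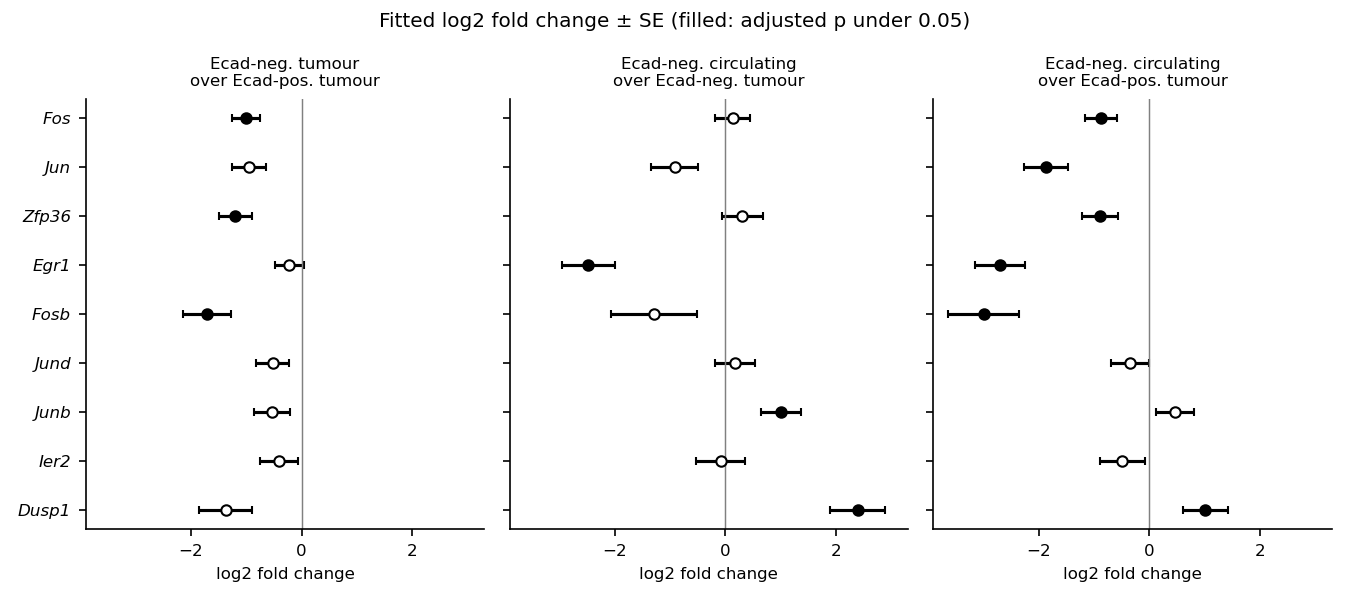
Log2 fold change of the 9 tested members (horizontal axis) in Ecad-negative over Ecad-positive tumour cells, Ecad-negative circulating over Ecad-negative tumour cells and Ecad-negative circulating over Ecad-positive tumour cells, from the edgeR fit on 12 sums. Bars are ± SE and filled points have an adjusted p under 0.05. In Ecad-negative over Ecad-positive tumour cells all 9 points lie below 0, and in Ecad-negative circulating over Ecad-negative tumour cells Egr1 (−2.48) and Dusp1 (2.39) lie farthest apart.

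The second comparison set E-cadherin-negative cells sorted from blood against those of the tumour. Of 9 members tested, Dusp1 and Junb rose and Egr1 fell in Ecad-negative circulating cells, beside 23.9% of all genes that rose and 17.1% that fell (41% in either direction). Their median log2 fold change was 0.13, against −0.05 over all genes. This comparison shares its Ecad-negative tumour samples with the first.

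Dusp1 had 6.15, 9.52, 4.22 and 9.89 per 10000 in Ecad-negative circulating cells and 2.43, 0.547, 4.42 and 1.17 in Ecad-negative tumour cells. It was higher in Ecad-negative circulating cells in 3 of 4 libraries, with library 3 about even, and the log2 fold change was 2.39 (SE 0.50, edgeR adjusted p = 0.000226). Junb had 5.31, 10.7, 5.06 and 6.30 per 10000 in Ecad-negative circulating cells and 7.04, 2.66, 4.41 and 3.50 in Ecad-negative tumour cells. Library 1 ran the other way, and the log2 fold change was 1.0048 (SE 0.37, edgeR adjusted p = 0.0285). Junb lost its call in 10 of 13 alternatives, among them without library 2 (0.31, edgeR adjusted p = 0.661), without library 4 (0.0671) and without the large Ecad-negative tumour well (0.65, 0.127).

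Egr1, a zinc finger factor induced through serum response factor, had 0.816, 1.18, 0.844 and 0.897 per 10000 in Ecad-negative circulating cells and 7.04, 3.52, 7.17 and 10.6 in Ecad-negative tumour cells. Every Ecad-negative circulating library lay below every Ecad-negative tumour library, with 7 transcripts in all Ecad-negative circulating wells and 96 in all Ecad-negative tumour wells. The log2 fold change was −2.48 (SE 0.47, edgeR adjusted p = 8.19e-05), and the call was kept in all 13 alternatives, between −2.97 and −1.87. Fosb (−1.29, edgeR adjusted p = 0.190) and Jun (−0.92, 0.0920) did not pass. Fosb was lower in Ecad-negative circulating cells in 3 of 4 libraries, while Jun was lower in 2 and higher in 2. Over the 13 alternatives the fold change ran from −1.82 to −0.40 for Fosb and from −1.68 to −0.0251 for Jun. Jun passed in 5 of 13 alternatives, among them without library 2 (−1.35, edgeR adjusted p = 0.0280) and without the large Ecad-negative tumour well (−1.10, 0.0194), and Fosb in 2, with means over cells (limma, 0.0014) and with scaling by total transcripts (0.0499). Fos (0.13), Zfp36 (0.31), Jund (0.17) and Ier2 (−0.08) had fold changes within their SE, and the sign of each turned in at least 1 alternative.

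Calls in comparisons with blood moved with the scaling. Scaled by total transcripts, the median log2 fold change of all genes moved to −0.49 for Ecad-negative circulating over Ecad-negative tumour cells and to −0.48 for Ecad-negative circulating over Ecad-positive tumour cells, against −0.05 and −0.08 here. The split of calls between Ecad-negative circulating cells and Ecad-negative tumour cells was then 99 higher and 187 lower, in place of 117 and 84, and Dusp1 was higher and Egr1, Fosb and Jun lower among the members. Between Ecad-negative circulating and Ecad-positive tumour cells it was 110 higher and 188 lower, in place of 133 and 103, with 0 members higher and 5 lower. With means over cells in limma, 107 genes were higher and 159 lower in the first of these comparisons and 109 and 202 in the second. With at least 1500 transcripts per well Dusp1 stood at 1.72 and did not pass (adjusted p = 0.203).

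The third comparison set E-cadherin-negative blood cells against E-cadherin-positive tumour cells. Of 9 members tested, Egr1, Fosb, Jun, Fos and Zfp36 fell and Dusp1 rose in Ecad-negative circulating cells, beside 21% of all genes that fell and 27.1% that rose (48.2% in either direction). The median log2 fold change of the 9 was −0.87, against −0.08 over all genes. The Ecad-negative circulating samples and Ecad-positive tumour samples also serve in the other comparisons.

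Egr1 ranged from 0.816 to 1.18 per 10000 in Ecad-negative circulating cells, as given above, against 10.4, 6.33, 7.35 and 8.49 in Ecad-positive tumour libraries 1 to 4. The groups did not overlap. The log2 fold change was −2.69 (SE 0.45, edgeR adjusted p = 1.18e-05). Jun, the main partner of Fos in AP-1, had 1.63, 3.17, 5.07 and 3.59 per 10000 in Ecad-negative circulating cells and 16.1, 12.2, 15.6 and 11.7 in Ecad-positive tumour cells. All Ecad-negative circulating libraries lay below all Ecad-positive tumour libraries, and the log2 fold change was −1.87 (SE 0.40, edgeR adjusted p = 0.000262). The calls of Egr1 and Jun were kept in all 13 alternatives each.

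Fosb had 1.23, 0.791, 0 and 0.897 per 10000 in Ecad-negative circulating cells, or 6 transcripts in all, against 161 transcripts in Ecad-positive tumour cells and a mean of 8.08 ± 4.36. No Ecad-negative circulating library reached an Ecad-positive tumour library, and the log2 fold change was −2.99 (SE 0.64, edgeR adjusted p = 0.000260). Fos averaged 14.6 ± 2.06 in Ecad-negative circulating cells and 33.9 ± 10.3 in Ecad-positive tumour cells, lower in 4 of 4 libraries and without overlap (−0.87, SE 0.29, edgeR adjusted p = 0.0130). Zfp36 averaged 6.11 ± 1.35 in Ecad-negative circulating cells and 13.6 ± 2.12 in Ecad-positive tumour cells, again lower in 4 of 4 libraries (−0.89, SE 0.32, edgeR adjusted p = 0.0243). Atf3, too low to test, had 4 transcripts in Ecad-negative circulating cells and 65 in Ecad-positive tumour cells, with means of 0.517 ± 0.617 and 3.50 ± 0.538 per 10000.

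Dusp1 ran against these genes, at 7.45 ± 2.73 per 10000 in Ecad-negative circulating cells and 4.86 ± 2.05 in Ecad-positive tumour cells, higher in Ecad-negative circulating cells in 3 of 4 libraries with overlap (1.01, SE 0.41, edgeR adjusted p = 0.0420). Its call was lost in 8 of 13 alternatives, among them without the replicate block (0.95, 0.0945), with scaling by total transcripts (0.60, 0.197), without library 2 (0.59, 0.283) and without library 4 (1.10, 0.0965). The calls of Fos and Zfp36 were lost with DESeq2 (adjusted p = 0.131 and 0.107) and with at least 1500 transcripts per well, that of Fos also without libraries 1 and 4 (edgeR adjusted p = 0.15 and 0.105) and that of Zfp36 without libraries 2 and 3 (0.131 and 0.104). The Fosb call was lost with at least 1500 transcripts per well (−2.18, adjusted p = 0.131). Junb (0.47), Jund (−0.35) and Ier2 (−0.49) did not pass. Heat shock genes took 0.2501 to 0.623% of Ecad-negative circulating transcripts, below every tumour library, and neutrophil and leukocyte markers were higher in Ecad-negative circulating cells as given above; their part in the members' values was not tested.

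Few other genes of the pathway were abundant enough to test. Of the other AP-1 and ATF family, 11 of 16 genes were measured and 1 was tested, Atf4, a stress response factor named after its values were seen, which passed in no comparison. Of other immediate early transcription regulators 17 of 23 were measured and 8 tested, of feedback regulators 18 of 21 and 4, and of upstream kinases and partners of serum response factor 14 of 20 and 0. In Ecad-negative against Ecad-positive tumour cells, 0 of these passed with edgeR, DESeq2 or limma, beside 6.33% of all genes with edgeR. At an unadjusted edgeR p under 0.05 were 1 of 8 regulators and 1 of 4 feedback genes, beside 88 of all 490 genes tested. The median log2 fold changes of the regulators and feedback genes were −0.44 and −0.46, against −0.01 over all genes tested.

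In Ecad-negative circulating against Ecad-negative tumour cells, 2 of the 8 regulators and 1 of the 4 feedback genes rose, shares near the 23.9% of all genes that rose. Btg1, an antiproliferative gene, averaged 14.8 ± 6.59 per 10000 in Ecad-negative circulating cells and 6.52 ± 1.08 in Ecad-negative tumour cells (1.36, SE 0.30, edgeR adjusted p = 0.000427), higher in 3 of 4 libraries, and did not pass with at least 1500 transcripts per well (0.63, 0.298). Cebpb, a leucine zipper factor of myeloid and mammary cells, averaged 11.97 ± 2.91 in Ecad-negative circulating cells and 5.60 ± 1.77 in Ecad-negative tumour cells (1.28, SE 0.27, edgeR adjusted p = 0.000333), higher in 4 of 4 libraries, and did not pass with no filter on low counts (0.88, 0.0652). The feedback gene was Zfp36l2, a relative of Zfp36, higher in 3 of 4 libraries (1.21, SE 0.46, edgeR adjusted p = 0.0349), a call lost in 6 of 12 alternatives, among them without libraries 1, 3 and 4 (0.530, 0.0842 and 0.0703).

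In Ecad-negative circulating against Ecad-positive tumour cells, Btg1 (1.63, SE 0.29, edgeR adjusted p = 3.06e-05) and Cebpb (0.93, SE 0.26, 0.00386) rose and Ier3 fell, or 2 and 1 of the 8 regulators, beside 27.1% and 21% of all genes. The Cebpb call was lost in 4 of 13 alternatives, with scaling by total transcripts (0.53, adjusted p = 0.0705), no filter (0.22, 0.742), at least 1500 transcripts per well (0.88, 0.114) and means over cells (0.51, 0.0847). With at least 1500 transcripts per well Btg1 (0.82, 0.162) and Ier3 (−1.82, 0.0524) did not pass either. Ier3 averaged 1.87 ± 0.163 per 10000 in Ecad-negative circulating cells and 6.38 ± 3.58 in Ecad-positive tumour cells (−1.40, SE 0.42, edgeR adjusted p = 0.00673). Of the feedback genes, Errfi1, which inhibits the EGF receptor, averaged 0.837 ± 0.0459 in Ecad-negative circulating cells and 3.81 ± 1.24 in Ecad-positive tumour cells (−1.91, SE 0.65, edgeR adjusted p = 0.0139, 4 of 4 libraries), a call lost without libraries 1 and 2 (0.0864 and 0.0569) and with at least 1500 transcripts per well (0.109). These lists, like the members, were chosen with earlier results known.

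Among the non-members with the pattern most like the summed members over the 12 sums were Zfp36l1, Btg2, Nr4a1 and Ier3. Pearson's r of log2(per 10000 + 1) was 0.877 for Zfp36l1, 0.802 for Btg2, 0.787 for Nr4a1 and 0.778 for Ier3, among 481 genes. The 12 points share libraries and populations, so r is a description.

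The Ecad-positive circulating wells of library 1 had a low level and another order. Jund led with 4.29 per 10000 (95% Poisson interval 2.94 to 6.05), followed by Zfp36 with 3.07 (1.95 to 4.61), Junb with 2.68 (1.64 to 4.13), Ier2 with 2.40 (1.43 to 3.80) and Fos with 2.28 (1.33 to 3.64). Within library 1, Fos had 12.3 per 10000 in Ecad-negative circulating cells and 2.28 in Ecad-positive circulating cells, with counting intervals that did not overlap. Jund had 5.32 in Ecad-negative circulating cells and 4.29 in Ecad-positive circulating cells, with overlapping intervals. Fosb and Atf3 had 1 transcript each in Ecad-positive circulating cells. With 1 library of Ecad-positive circulating cells there is no replicate check, and the intervals cover counting error only.

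The E-cadherin-positive tumour cells of experiment i held far fewer transcripts of these genes. The sum was 7.75 per 10000 (95% Poisson interval 6.94 to 8.61) in library 1 and 7.88 (5.94 to 10.3) in library 2, beside 90.1 to 138 in the Ecad-positive tumour libraries, which carry the same sort label. The tables were deposited separately, so these levels stand side by side and were not tested. Jun led in both, with 115 transcripts or 2.63 per 10000 (2.18 to 3.16) in library 1 and 22 or 3.16 (1.98 to 4.77) in library 2.

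Fos, the leader in experiment ii, had 1.54 per 10000 (1.19 to 1.95) in library 1, and 34.2% of its 67 transcripts were in 1 well. It had 3 transcripts, or 0.430 per 10000, in library 2. Ier2 had 1.29 (0.972 to 1.67) and 1.58 (0.788 to 2.82). Fosb was not listed in library 1, and Zfp36 and Atf3 were not listed in library 2. Heat shock genes took 0.597% and 0.832% of transcripts, epithelial markers 0.836% and 0.362%, basal markers 0.0158% and 0.638%, and leukocyte markers 0.0352% and 0.445% in libraries 1 and 2. The heat shock share of both was thus near the range of the Ecad-positive tumour libraries, and library 2 held more basal and leukocyte transcripts than library 1 under the same label.

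Between cells, the summed level covered a wide range in every population of experiment ii, with the counting noise of shallow wells included. Cells ran from 0 to 213 per 10000 with a median of 49.3 in Ecad-negative circulating cells, from 4.98 to 39.9 with a median of 16.8 in Ecad-positive circulating cells, from 0 to 244 with a median of 40.4 in Ecad-negative tumour cells, and from 7.53 to 293 with a median of 94.2 in Ecad-positive tumour cells. The quartiles were 28.5 and 68.95 in Ecad-negative tumour cells and 33.4 and 160 in Ecad-positive tumour cells. The wider range of the latter went with a higher mean (SD 74.2 at a mean of 102, against 46.3 at 56.2). In experiment i the medians were 5.67 and 0, with 23 of 95 and 35 of 65 wells holding no transcript of any member. A single well of library 1 reached 172. Cells are not replicates, and these ranges describe the wells.

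**Figure D4:**
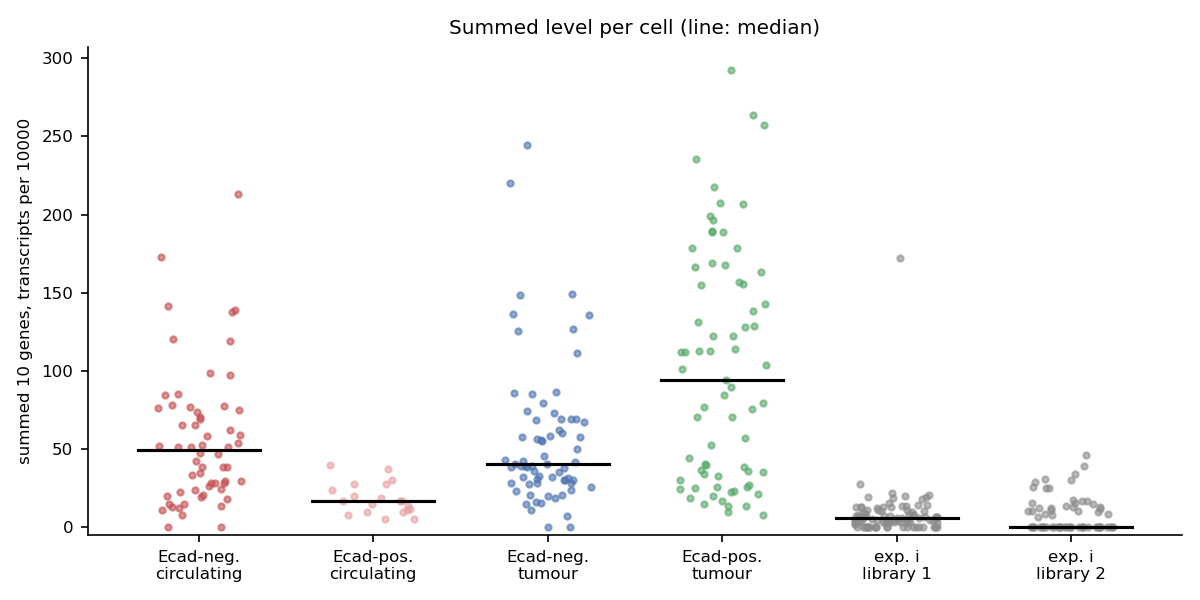
Summed level of the 10 genes in each well (transcripts per 10000, vertical axis) for Ecad-negative circulating cells, Ecad-positive circulating cells, Ecad-negative and Ecad-positive tumour cells and for libraries 1 and 2 of experiment i; each point is 1 well and the line the median. Wells of Ecad-positive tumour cells have a median of 94.2 and reach 293, while wells of experiment i have medians of 5.67 and 0.

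Counting the member with the most transcripts in each well, Fos led alone in 19 of 33 Ecad-negative circulating, 1 of 14 Ecad-positive circulating, 23 of 48 Ecad-negative tumour and 32 of 49 Ecad-positive tumour wells that had a single leader. Jund led in 6 of 14 Ecad-positive circulating wells. Jun led in 21 of 51 and 9 of 25 such wells of experiment i. Dusp1 and Junb led in 5 Ecad-negative circulating wells each.

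To compare wells of unlike depth, each was thinned to 500 transcripts, which left out no well. Fos was then found in 45% of Ecad-negative circulating, 15% of Ecad-positive circulating, 42.03% of Ecad-negative tumour and 66.2% of Ecad-positive tumour wells. Unthinned it was in 60% of Ecad-negative circulating, 50% of Ecad-positive circulating, 71.01% of Ecad-negative tumour and 81.7% of Ecad-positive tumour wells. Dusp1 was found in 31.7% of Ecad-negative circulating, 7.25% of Ecad-negative tumour and 14.1% of Ecad-positive tumour wells, and Egr1 in 8.33%, 23.2% and 26.8% of the same 3 sets of wells. Of the 10 members a mean of 2.05 were found per Ecad-negative circulating well, 0.65 per Ecad-positive circulating, 2.16 per Ecad-negative tumour and 3.07 per Ecad-positive tumour well, with at least 5 found in 6.67% of Ecad-negative circulating, 8.70% of Ecad-negative tumour and 23.9% of Ecad-positive tumour wells.

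Correlations between members across wells were low and moved with the thinning. Wells thinned to 500 transcripts held few of these genes. Fos averaged 0.8 transcripts per Ecad-negative circulating, 0.841 per Ecad-negative tumour and 1.61 per Ecad-positive tumour well, and every other member averaged less. Counting noise lowers rho at such levels, and the levels differ, so covariation cannot be compared between the populations from these values. Within libraries, 21 of 44 pairs had a mean Spearman rho above 0 in Ecad-negative circulating cells (median −0.01), 24 of 45 in Ecad-negative tumour cells (median 0.01) and 36 of 45 in Ecad-positive tumour cells (median 0.13). With another random seed the counts were 27 of 44, 27 of 45 and 37 of 45 in the same order of populations. Thinned to 1000 transcripts, which left 24, 51 and 58 wells, they were 19 of 36 (median 0.07), 31 of 45 (0.11) and 41 of 45 (0.23). The highest in Ecad-positive tumour cells was Fos with Zfp36, at 0.501 (0.391 to 0.548 over 4 libraries). Both were found in 24 of 71 wells, where their separate shares give 18.9. The rho of this pair moved to 0.299 with another random seed and to 0.420 when thinned to 1000 transcripts. Fos with Ier2 had 0.428 and Fos with Egr1 0.374, which moved to 0.130 and 0.230 with the other seed. The wells of a library share its preparation, and no p is given.

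In experiment i library 1, the genes most like the summed members over 93 wells thinned to 1000 transcripts included Rpl10a (Spearman rho 0.363), Actg1 (0.276), Thbs1 (0.265) and Sox4 (0.264), among 670 genes. None of these values is high, and no p is given.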

How the data were processed

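CEL-seq libraries were read on an Illumina NextSeq500 per the labels' protocols, with BWA 0.6.2-r126 and mm10 named in the submitters' processing notes (counting step: not given in the sources used here). For each gene and well the authors deposited estimated counts of transcripts, corrected for 256 molecular barcodes and unscaled between wells. Spike-ins were left out. Members and gene lists were chosen with earlier results of these data known.

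Wells with at least 500 transcripts were summed per library and population and rounded. The 12 sums of the 3 populations present in every library were fitted in edgeR 4.0.16 (R 4.3.3; quasi-likelihood test, TMM, filterByExpr, which left 490 genes) with library as the replicate block, since each library holds all 3. Same-library residuals correlated at 0.0517 to 0.311 (mean 0.152), those of different libraries at a mean of −0.049. A gene was called at an adjusted p (Benjamini-Hochberg, over all genes tested) below 0.05. The labels do not tie libraries to animals: the p-values reflect the spread among these libraries alone, which may be technical. Between libraries, sums of 1 population differed beyond sampling noise (chi-square over degrees of freedom 1.62 to 3.15). Sums held 11172 to 25379 transcripts in Ecad-negative circulating, 17189 to 109892 in Ecad-negative tumour and 27416 to 71894 in Ecad-positive tumour cells, and 75125 in Ecad-positive circulating cells. Poisson intervals (95%) cover counting error only.

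All 10 members are named. Of the pathway lists, genes past the threshold are named, at most 8 per comparison by fold change; like-pattern genes are the 5 with the highest correlation, 1 of which is not reported here in each of the 2 rankings. DESeq2 1.42.0, limma 3.58.1 (log2(mean + 1)), other scalings, filters and depths and leaving out each library were tried. The fit was tested on simulated data. Promoters come from RefSeq and 3′ regions from GENCODE transcripts.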

Additional observations from a re-analysis of the deposited data

Results flagged for a closer look

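Atf3 in Ecad-negative tumour library 1, at 4.08 transcripts per 10000, lay far above the other 3 Ecad-negative tumour libraries, which held 0.457 to 0.583, and 67.1% of its 15 transcripts there were in 1 well. Ier2 in Ecad-negative circulating library 3, at 5.92 per 10000, lay above the other Ecad-negative circulating libraries at 2.04 to 2.69. Chance alone sets about 1 in 20 groups of 4 apart this way, and 33 groups were looked at.

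Fos, Jun, Zfp36 and the sum of the members were lower in Ecad-negative tumour cells than in Ecad-positive tumour cells in 4 of 4 libraries, but higher in Ecad-negative circulating cells than in Ecad-positive circulating cells in library 1, the only library with Ecad-positive circulating cells. The blood differences were 10.06 for Fos, 0.298 for Jun, 2.645 for Zfp36 and 23.59 for the sum, in transcripts per 10000. The counting intervals of the 2 populations overlapped for Jun, with 4 transcripts in Ecad-negative and 10 in Ecad-positive circulating cells, and for Zfp36, but not for Fos or the sum. This opposite direction was not tested.

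In library 3 of experiment i, which the comparisons do not use, all wells together held 9 transcripts of the members (6.41 per 10000), of which 5 were Fos.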

How the results depend on the processing

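Members called moved with the setting. In Ecad-negative against Ecad-positive tumour cells, 3 members were called, but 0 without the replicate block, 0 with DESeq2, 0 with at least 1500 transcripts per well, 6 with no filter on low counts, and 0 to 3 when each library was left out. In Ecad-negative circulating against Ecad-negative tumour cells, 3 were called, 1 with at least 1500 transcripts per well and 2 to 3 with a library left out. In Ecad-negative circulating against Ecad-positive tumour cells, 6 were called, 3 with DESeq2, 2 with at least 1500 transcripts per well and 4 to 6 with a library left out. These are of 9 members tested, or of 10 with no filter and without library 3. All genes tested were 490, but 9056 with no filter, 449 with at least 1500 transcripts per well and 480 to 586 with a library left out. They were 485 without the large well and 487 without marker-high wells, so counts of calls are not shares of the same total. Genes called of all tested were 31 in Ecad-negative against Ecad-positive tumour cells, 20 without the replicate block, 109 with no filter, 55 without the large Ecad-negative tumour well, 12 without Ecad-negative tumour wells high in other markers and 19 to 42 with a library left out. They were 201 in Ecad-negative circulating against Ecad-negative tumour cells, 598 with no filter, 123 with at least 1500 transcripts per well and 168 to 223 with a library left out, and 236 in Ecad-negative circulating against Ecad-positive tumour cells, with 752, 133 and 193 to 258 in the same settings.

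Signs turned only for members that were not called. In Ecad-negative circulating against Ecad-negative tumour cells, Fos (0.13) was −0.0495 without the replicate block, −0.30 with scaling by total transcripts, −0.24 with no filter, −0.0096 without the large Ecad-negative tumour well and −0.50 to 0.65 with a library left out. Jund (0.17) was −0.27 with total scaling, −0.22 with no filter, −1.19 with at least 1500 transcripts and −0.0736 without marker-high wells. Ier2 (−0.08) was 0.17 without those wells and reached 0.31 without library 1. Zfp36 (0.31) was −0.13 with total scaling, −0.0646 with no filter, −0.0663 with means over cells and −0.0349 to 0.50 with a library left out. In Ecad-negative circulating against Ecad-positive tumour cells, Junb (0.47) was −0.25 with no filter and −0.0361 to 0.84 with a library left out. The causes were not tested.

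The summed level of Ecad-negative circulating cells, 48.8 per 10000, was 41.6 with at least 1500 transcripts per well and 56.7 as a mean over cells, and that of experiment i library 2, 7.88, was 5.59 with at least 1500. With a library left out it ran from 47.02 to 51.1 in Ecad-negative circulating cells, 48.1 to 68.3 in Ecad-negative tumour cells and 94.2 to 110.1 in Ecad-positive tumour cells, and Fos kept rank 1 in all settings run. Of the member levels, 234 of the alternative values moved by less than the SD between libraries and 6 by more. Leaving out a library cannot move a mean of 4 libraries by more than that SD. Leaving out the large well changes only Ecad-negative tumour cells. Many of the 234 were thus fixed in advance by the setting, and their number does not measure how stable the levels are. The thinned shares of wells moved by more in 20 values and not in 40, the variance over mean in 26 and not in 33, and the correlations in 25 and not in 65. Depth limits Fosb, Atf3 and Egr1 in blood most, at 6, 4 and 7 transcripts in Ecad-negative circulating cells.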
